A study of Rattus norvegicus with 18 samples.

Results

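The 32 genes described here are cytoskeletal and contractile targets of the transcription factor SRF and of its coactivators, the MRTF proteins. They are SRF itself, 4 actins, 4 adhesion proteins, filamin A and the filamin A-interacting protein gene FILIP1L, 8 LIM domain proteins, 6 calponin, transgelin and smoothelin genes, caldesmon with 3 tropomyosins, and 3 actin turnover proteins. They were chosen by name, and all 32 names were found among the 28909 rows of the table. Gene names are written as the table gives them. The cells were cultured neonatal rat ventricular cardiomyocytes from hearts of 1-day-old wild-type SD rats, freed of fast-attaching cells by 90 min of plating and held in medium with 0.25% serum. Of the 18 samples, 6 were RNA libraries. In 3 of them cells had received blebbistatin for 0.5 h, and in the other 3 they had received its solvent DMSO. Blebbistatin blocks the ATPase of myosin II motors, and the treatment protocol gives 25 µM where the design text also gives 0.25. The labels do not say that libraries of a group came from separate preparations, so all p-values here speak only of how these 6 libraries vary. The 12 chromatin samples are not analysed here.

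SRF binds DNA at CArG boxes and turns on different genes with different partners. With the MRTF coactivators it drives actin, tropomyosin, calponin and adhesion genes. Monomeric actin holds MRTF in the cytoplasm, and when tension and signalling drive actin into filaments, MRTF is released and enters the nucleus. With the ternary complex factors of the ELK family, which are phosphorylated by MAP kinases, SRF drives immediate early genes such as FOS. In cardiac muscle SRF is needed for the normal expression of sarcomere and cytoskeletal genes.

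The binding element was looked for in the RefSeq promoter windows of these genes (build GRCr8), which run from 250 bases before to 50 bases after the annotated start. A CArG box was counted where CC and GG flank 6 bases that are all A or T. This form reads the same on both strands, and boxes were counted wherever they overlapped. Of the 32 genes, 30 had a window, all but ACTB and TAGLN. A box stood in the window of 6 genes, SRF, ACTG1, FHL1, FHL2, LIMA1 and CNN2, which is 20% of the 30, against 1.77% of the 27457 rat genes with a window. With 1 G or C allowed among the 6 bases, 11 of the 30 genes had a box or near box (36.7%), against 10.1% of all genes. These letters are a description of the windows and show no binding. The stretches below carry the gene's box or near box in capitals. They were picked from the 11 genes with a box or near box. Without DMSO replicate 1, SRF was the only one of the 32 genes below 0 by more than 0.2 on the log2 scale. ACTG1 was the only one whose groups then did not overlap. In DMSO replicate 1, CNN2 was higher (0.76) and FHL2 and ACTA2 lower (-1.09 and -0.48) than the average of the rest, in log2 units. FILIP1L, with a near box, was at 0.48 and is not shown. Genes further out than CNN2 and ACTA2 in that library, TLN1 (1.06), VCL (0.98), FLNA (0.87) and CNN1 (-0.86), had neither kind of box. A link between boxes and levels in that library was not tested.
SRF, chr9:21923975-21924044, plus strand, boxes from bases -81 and -61: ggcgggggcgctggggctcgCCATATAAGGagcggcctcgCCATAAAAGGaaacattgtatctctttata
ACTG1, chr10:106121012-106121061, minus strand, box from base -90: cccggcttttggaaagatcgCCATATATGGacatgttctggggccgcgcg
CNN2, chr7:10370354-10370403, minus strand, box from base -71: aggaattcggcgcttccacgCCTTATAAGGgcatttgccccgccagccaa
FHL2, first of its annotated starts, chr9:52954606-52954655, minus strand, box from base -95: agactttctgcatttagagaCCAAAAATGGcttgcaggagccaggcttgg
FHL2, the other start, chr9:52923355-52923404, minus strand, box from base -58: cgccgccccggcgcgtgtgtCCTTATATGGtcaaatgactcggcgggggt
ACTA2, chr1:241172558-241172657, minus strand, near boxes from bases -134 and -84: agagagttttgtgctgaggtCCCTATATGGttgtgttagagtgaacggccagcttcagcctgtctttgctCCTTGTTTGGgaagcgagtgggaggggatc

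Expression values are CPM, reads scaled so that all libraries have equal totals, and the steps in the table put the depth at 59.6 to 63.3 M reads. DMSO replicate 1 stood apart over all genes, at 77.4 on component 1, which carried 42% of the variance and placed the other 5 libraries between -34.6 and 3.03. Cardiomyocyte markers summed to 22980 to 24840 CPM with blebbistatin and 23070 to 28570 CPM with DMSO. The cardiomyocyte genes TNNT2, MYH6, MYH7, ACTN2 and RYR2 were high in every library (TNNT2 at 1304 to 1798 CPM with blebbistatin and 977 to 1752 CPM with DMSO), while NPPA varied widely, at 2785 to 5326 CPM with blebbistatin and 495 to 5168 CPM with DMSO. Fibroblast markers were also high and summed to 33680 to 38170 CPM with blebbistatin and 33640 to 39130 CPM with DMSO. COL1A1, a collagen gene, was at 18795 to 24185 CPM with blebbistatin and 18909.9 to 24452 CPM with DMSO. Smooth muscle markers, whose cells also express ACTA2, TAGLN and CNN1, summed to 2319 to 2958 CPM with blebbistatin and 2323 to 3185 CPM with DMSO. Endothelial markers summed to 69.9 to 82.0 CPM with blebbistatin and 72.2 to 94.2 CPM with DMSO. Macrophage markers were at 139 to 155 CPM with blebbistatin and 71.1 to 153 CPM with DMSO, and red blood cell genes at 26.1 to 30.8 CPM with blebbistatin and 28.3 to 71.8 CPM with DMSO. DMSO replicate 1 gave the lowest of these sums for macrophages and the highest for cardiomyocytes, smooth muscle, endothelium and red blood cells. Single genes carried much of each of these highest sums in that library. They were MYH7 with 19644 CPM for cardiomyocytes and DES, which cardiomyocytes also express, with 1935 CPM for smooth muscle. For endothelium it was VWF with 38.8 CPM, and for red blood cells HBB with 70.7 CPM made nearly all of the sum. The cardiomyocyte markers went both ways in DMSO replicate 1. MYH6, MYH7, ACTN2 and RYR2 were each highest in it, and TNNT2, TNNI3, NPPA and PLN each lowest. Of the measured markers limma called 0 in each of the 6 lists, with 0 at an unadjusted p under 0.05. The groups did not overlap for 1 of 9 cardiomyocyte markers, PLN, and 2 of 6 macrophage markers, CD14 and PTPRC, all higher with blebbistatin, which was so for 3.62% of all tested genes. The part of these cells in the values of the 32 genes was not tested. In such bulk samples, fewer cells of a type and less RNA per cell cannot be told apart.

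After 0.5 h of blebbistatin none of the 32 cytoskeletal targets passed the test. Limma, on log2 of scaled CPM with 0.1 CPM added, called 0 of 32 at an adjusted p under 0.05, and 0 of 32 were at an unadjusted p under 0.05. Over all 15204 genes tested it called 3 (0.0197%), with 229 at an unadjusted p under 0.05 (1.51%). A count-based test was not run, since the values are CPM and some are fractions of a read. The 32 log2 fold changes ran from -0.32 for TLN1 to 0.35 for CNN1, with a median of -0.016, against 0.0025 over all tested genes and -0.044 over the 1899 of them at 100 CPM or more. They were positive for 15 genes and negative for 17, and limma's adjusted p ran from 0.991 to 0.996. In CPM as deposited, none of the 32 had all treated libraries above or all below the DMSO libraries. Over all tested genes 6.1% did (3.62% higher and 2.48% lower with blebbistatin), and 3.05% of the 1899 tested genes at 100 CPM or more. After division by the TMM factors, a comparison chosen after seeing the data, 1 of the 32 did, ACTG1, which was lower with blebbistatin; the share over all tested genes was 6.12% in either direction and 2.93% lower.

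Without DMSO replicate 1, 0 of the 32 passed limma's adjusted threshold (0.0395% of all tested genes) and 0 were at an unadjusted p under 0.05 (1.59% of all). The range of log2 fold changes narrowed to between -0.20 for SRF and 0.077 for CNN1, with a median of -0.034 (0.0044 over the 1899 genes), and 14 of the 32 changed sign.

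**Figure D1:**
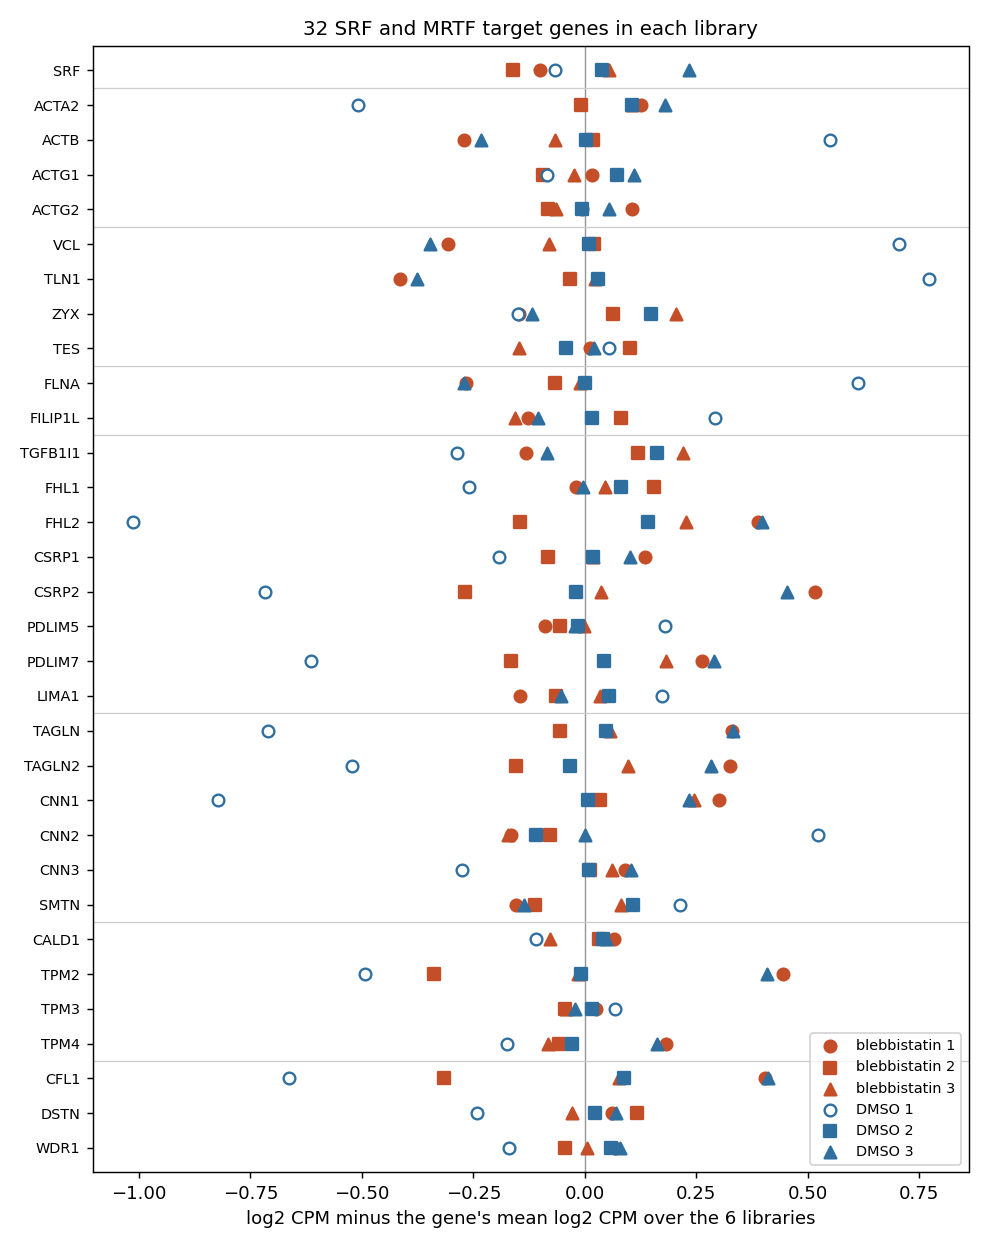
Each row is 1 of the 32 genes, grouped by role, and each marker is 1 library, placed by its log2 CPM minus the gene's mean log2 CPM over the 6 libraries (orange-red for blebbistatin, blue for DMSO, open circle for DMSO replicate 1). DMSO replicate 1 lies outside the range of the other 5 libraries for 28 of the 32 genes, while the treated libraries and DMSO replicates 2 and 3 overlap for every gene but ACTG1.

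The level of these genes was mostly high. A mean of at least 100 CPM over the 6 libraries was reached by 30 of the 32, the lowest of them SMTN at 142.7 CPM, and the others were CSRP2 at 21.6 CPM and TES at 20.4 CPM. CPM is not divided by transcript length, so these levels do not rank the genes by number of molecules. The steadiest high-level genes were TPM3, CALD1, ACTG2, ACTG1 and WDR1, whose highest library was less than 1.2 times the lowest. Without DMSO replicate 1 this held for 16 of the 32 genes.

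The low-level genes are both LIM proteins of the actin cytoskeleton. TES, which encodes testin of focal adhesions, was at 20.6, 21.9 and 18.4 CPM with blebbistatin and 21.2, 19.8 and 20.7 CPM with DMSO. Its highest library was also less than 1.2 times its lowest, and its groups overlapped (log2 fold change -0.063 ± 0.14, 0.0028 without DMSO replicate 1). CSRP2, a cysteine-rich protein of smooth muscle, was at 29.6, 17.2 and 21.2 CPM with blebbistatin and 12.6, 20.4 and 28.3 CPM with DMSO. Its highest values were in blebbistatin replicate 1 and DMSO replicate 3 and its lowest in blebbistatin replicate 2 and DMSO replicate 1. Its log2 fold change was 0.15 ± 0.29, and -0.12 without DMSO replicate 1.

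SRF, the transcription factor itself, was at 157, 151 and 175 CPM in the 3 blebbistatin libraries and at 161, 173 and 198 CPM in the 3 DMSO libraries. The groups overlapped, with DMSO replicates 1 and 2 within the treated range. Scaled means were 159 ± 11.8 CPM with blebbistatin and 179 ± 12.6 CPM with DMSO (SD, n = 3 each). The log2 fold change was -0.18 ± 0.12 (SE), with a 95% interval of -0.47 to 0.11, and -0.20 without DMSO replicate 1 (interval -0.48 to 0.072). SRF did not pass the limma test, with an unadjusted p of 0.195 and an adjusted p of 0.991.

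**Figure D2:**
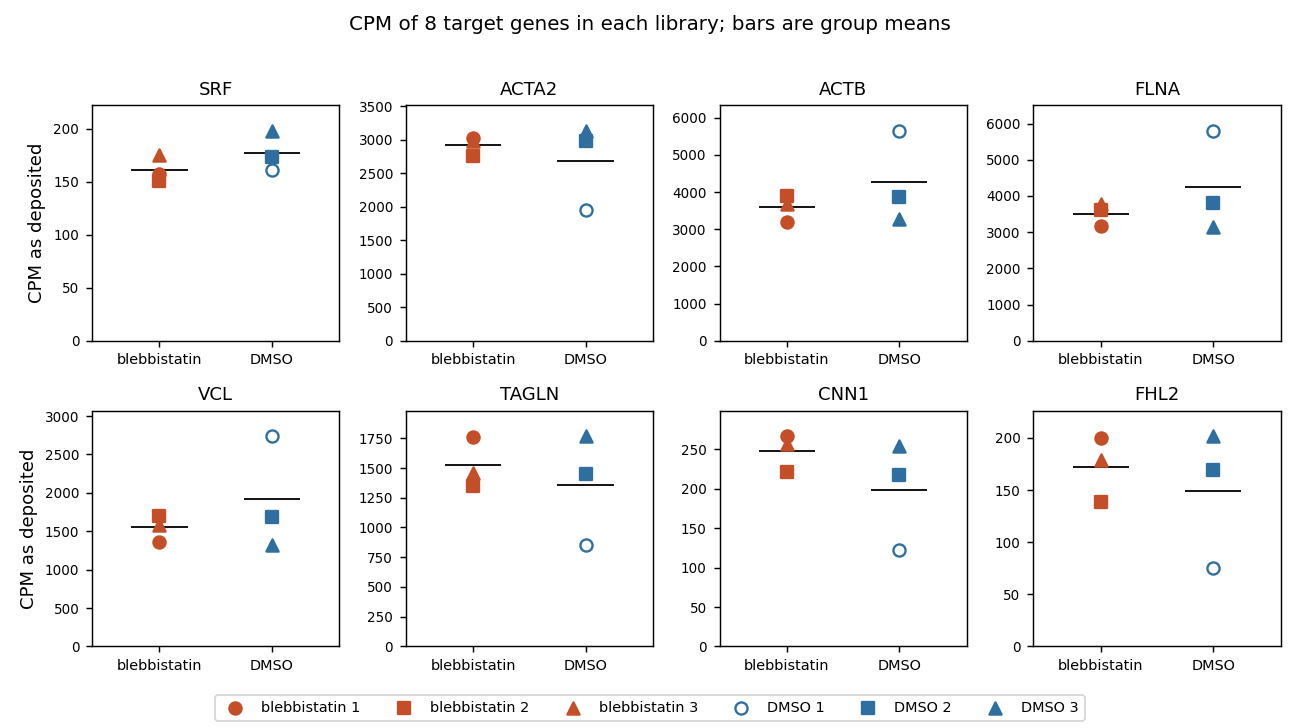
CPM as deposited of 8 of the 32 genes, with blebbistatin libraries on the left of each panel and DMSO libraries on the right, axes starting at 0 and bars at the group means. The open circle, DMSO replicate 1, is the lowest DMSO library for ACTA2, TAGLN, CNN1, FHL2 and SRF and the highest for ACTB, FLNA and VCL.

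The 4 actins varied differently between libraries, and none passed. ACTA2, the smooth muscle alpha actin that marks smooth muscle cells, myofibroblasts and immature cardiomyocytes, was at 3022, 2753 and 2981 CPM with blebbistatin and 1948, 2981 and 3136 CPM with DMSO. DMSO replicate 1 was the lowest library and the other 5 lay within 2753 to 3136 CPM. ACTB, the cytoplasmic beta actin, was at 3194, 3905 and 3679.6 CPM with blebbistatin and 5648, 3863 and 3280.3 CPM with DMSO. Here DMSO replicate 1 was the highest library. After scaling, ACTA2 differed on the log2 scale in that library from the mean of the other 5 by -0.48 and ACTB by 0.79. The log2 fold changes were 0.11 ± 0.17 for ACTA2 and -0.25 ± 0.24 for ACTB, and -0.065 and 0.012 without DMSO replicate 1. ACTG1, the cytoplasmic gamma actin, was among the steadiest genes, at 689.6, 639 and 671 CPM with blebbistatin and 643, 717 and 736 CPM with DMSO. Its log2 fold change was -0.11 ± 0.11. In CPM as deposited only DMSO replicate 1 overlapped the treated libraries. Without it ACTG1 was the 1 gene of the 32 whose groups did not overlap, lower with blebbistatin. Over all tested genes 12.2% did not overlap then (6.15% lower and 6.02% higher), and 6% of those at 100 CPM or more. Its fold change was then -0.12, with an interval of -0.35 to 0.11 that includes 0. ACTG2, the smooth muscle gamma actin, was at 176, 154 and 156 CPM with blebbistatin and 163, 163 and 169 CPM with DMSO, a log2 fold change of -0.069 ± 0.12. The coding sequences of actins resemble each other and the counting method is not given in the sources used here, so the split of reads among them is uncertain.

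Of the high-level adhesion genes, VCL and TLN1 spread widely between libraries and ZYX less so. VCL encodes vinculin, which links adhesions to actin and is recruited under tension. It was at 1358, 1704 and 1587 CPM with blebbistatin and 2737, 1689 and 1319 CPM with DMSO. TLN1 encodes talin, which couples integrins to actin, and was at 1020.3, 1331 and 1383 CPM with blebbistatin and 2323, 1389 and 1048 CPM with DMSO. DMSO replicate 1 exceeded every other library for both genes. Their log2 fold changes were -0.28 ± 0.29 and -0.32 ± 0.32, with wide intervals of -0.97 to 0.40 and -1.07 to 0.42. Without DMSO replicate 1 they were 0.051 and 0.036, so both signs rested on that library. ZYX encodes zyxin, a LIM protein of focal adhesions and stress fibres, and was at 497, 575 and 634 CPM with blebbistatin and 496, 610.0 and 507 CPM with DMSO. The groups overlapped for ZYX, with a log2 fold change of 0.04 ± 0.15. TLN1 and ZYX each overlap another protein-coding gene in RefSeq (Creb3 and Epha1), and the strand setting of the counts is not stated.

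FLNA encodes filamin A, which crosslinks actin filaments into networks. It was at 3158, 3624 and 3768 CPM with blebbistatin and 5804, 3797 and 3146 CPM with DMSO. The highest value was again DMSO replicate 1, and the other 5 libraries lay within 3146 to 3797 CPM. Its log2 fold change was -0.27 ± 0.26, and 0.025 without that library. FILIP1L was at 250.2, 289 and 245 CPM with blebbistatin and 335, 276 and 254 CPM with DMSO, a log2 fold change of -0.18 ± 0.17 (-0.019 without DMSO replicate 1). FILIP1L overlaps Cmss1 in RefSeq and is uncertain for the same reason.

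Of the 8 LIM protein genes, FHL2 had the widest spread between libraries of all 32. It encodes a LIM-only protein of the sarcomere and nucleus that binds SRF and competes with MRTF for it. FHL2 was at 200.1, 138 and 179 CPM with blebbistatin and 75.7, 169 and 201 CPM with DMSO. The lowest value, in DMSO replicate 1, was below all others, and the log2 fold change of 0.27 ± 0.32 became -0.11 without it. FHL1, a LIM-only protein of the sarcomere, was at 1450.3, 1638 and 1517 CPM with blebbistatin and 1227, 1554 and 1465 CPM with DMSO (log2 fold change 0.082 ± 0.13). CSRP1, a cysteine-rich LIM protein of smooth muscle and stress fibres, was at 1035, 891 and 954 CPM with blebbistatin and 824, 955 and 1011 CPM with DMSO (log2 fold change 0.0073 ± 0.12). Both genes were lowest in DMSO replicate 1 and otherwise mixed between the groups. PDLIM7, a PDZ and LIM protein of actin filaments and Z discs, was lowest in DMSO replicate 1 and blebbistatin replicate 2, at 179, 133 and 169.5 CPM with blebbistatin and 97.6, 154 and 183 CPM with DMSO (log2 fold change 0.15 ± 0.22). PDLIM5, its relative at the Z disc, was at 384, 393 and 408 CPM with blebbistatin and 463, 404 and 402 CPM with DMSO (log2 fold change -0.14 ± 0.14). LIMA1, which encodes the actin bundling protein EPLIN, was at 143, 151 and 162 CPM with blebbistatin and 178, 164 and 152 CPM with DMSO (log2 fold change -0.16 ± 0.14). TGFB1I1 encodes Hic-5, an adhesion protein, and was at 180.4, 215 and 230.4 CPM with blebbistatin and 162, 221 and 186 CPM with DMSO (log2 fold change 0.10 ± 0.16). Over the 8 genes, CSRP2 included, the log2 fold changes ran from -0.16 to 0.27 with all libraries and from -0.12 to 0.035 without DMSO replicate 1.

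Among the calponins and transgelins, which bind along actin filaments, CNN1 and TAGLN are classic markers of smooth muscle differentiation. CNN1 had the highest log2 fold change of the 32 and CNN2 the second lowest, and neither passed. CNN1 was at 266, 221 and 256 CPM with blebbistatin and 122, 217 and 254 CPM with DMSO. Scaled means were 244 ± 19.5 CPM with blebbistatin and 198 ± 60.2 CPM with DMSO (SD, n = 3 each), a log2 fold change of 0.35 ± 0.24 with an interval of -0.20 to 0.90. DMSO replicate 1 held the lowest value, and without it the fold change was 0.077 (interval -0.21 to 0.36). CNN2, the calponin of non-muscle cells, was at 127, 135 and 127 CPM with blebbistatin and 205, 132 and 143 CPM with DMSO. Here DMSO replicate 1 was the highest library, and the fold change of -0.32 ± 0.21 was -0.08 without it. CNN3, the acidic calponin, had the smallest spread of scaled log2 values in the treated group, at 325, 308 and 318 CPM with blebbistatin and 252, 307 and 328 CPM with DMSO (log2 fold change 0.068 ± 0.12). It overlaps Slc44a3 in RefSeq. TAGLN, which encodes transgelin, was at 1762, 1348 and 1458 CPM with blebbistatin and 857, 1448 and 1766 CPM with DMSO. The highest treated and the highest DMSO value were nearly equal, and DMSO replicate 1 was lowest. Its log2 fold change was 0.18 ± 0.24 and -0.076 without that library. TAGLN2, the more widely expressed transgelin, was at 932, 668 and 796 CPM with blebbistatin and 518, 727 and 905 CPM with DMSO (log2 fold change 0.14 ± 0.20). SMTN, which encodes smoothelin, was at 128, 131 and 150.2 CPM with blebbistatin and 165, 153 and 129 CPM with DMSO (log2 fold change -0.16 ± 0.16). The groups overlapped for both.

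Caldesmon and the tropomyosins lie along actin filaments and control the access of myosin to them. CALD1 was at 1069, 1045 and 969 CPM with blebbistatin and 947, 1051 and 1057 CPM with DMSO, and after scaling the SD of its log2 values in the DMSO group, 0.013, was the smallest of the 32. Its log2 fold change was -0.027 ± 0.12. TPM3, with the smallest ratio of highest to lowest library (1.08), was at 318, 303 and 303 CPM with blebbistatin and 327, 316 and 308 CPM with DMSO (log2 fold change -0.081 ± 0.12). On the log2 scale of scaled CPM, DMSO replicate 1 lay at -0.0017 for CALD1 and 0.21 for TPM3 relative to the average of the rest. TPM4, a tropomyosin of stress fibres, was at 1069, 905 and 891 CPM with blebbistatin and 835, 924 and 1054 CPM with DMSO (log2 fold change -0.012 ± 0.13). TPM2, the beta tropomyosin, varied most of the 4 genes, at 749, 435 and 545 CPM with blebbistatin and 391, 547 and 731 CPM with DMSO. Its highest treated value stood in replicate 1 and its highest DMSO value in replicate 3, and the log2 fold change was 0.021 ± 0.25. Tropomyosin genes resemble each other, so the split of reads among them is uncertain.

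The turnover genes return actin filaments to monomers, the form that holds MRTF in the cytoplasm. CFL1, which encodes cofilin, the severing protein of non-muscle cells, was at 774, 469.6 and 617 CPM with blebbistatin and 369, 622 and 777 CPM with DMSO. Both groups spanned a wide range, and the log2 fold change of 0.069 ± 0.27 was -0.19 without DMSO replicate 1. DSTN, which encodes the related severing protein destrin, was at 557, 579.5 and 524 CPM with blebbistatin and 452, 544 and 561 CPM with DMSO (log2 fold change 0.058 ± 0.12). WDR1, a cofactor of cofilin, was at 405, 374 and 388 CPM with blebbistatin and 343, 402 and 408 CPM with DMSO (log2 fold change -0.02 ± 0.12). DSTN and WDR1 differed little among the 5 libraries other than DMSO replicate 1, within 524 to 579.5 CPM and 374 to 408 CPM.

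**Figure D3:**
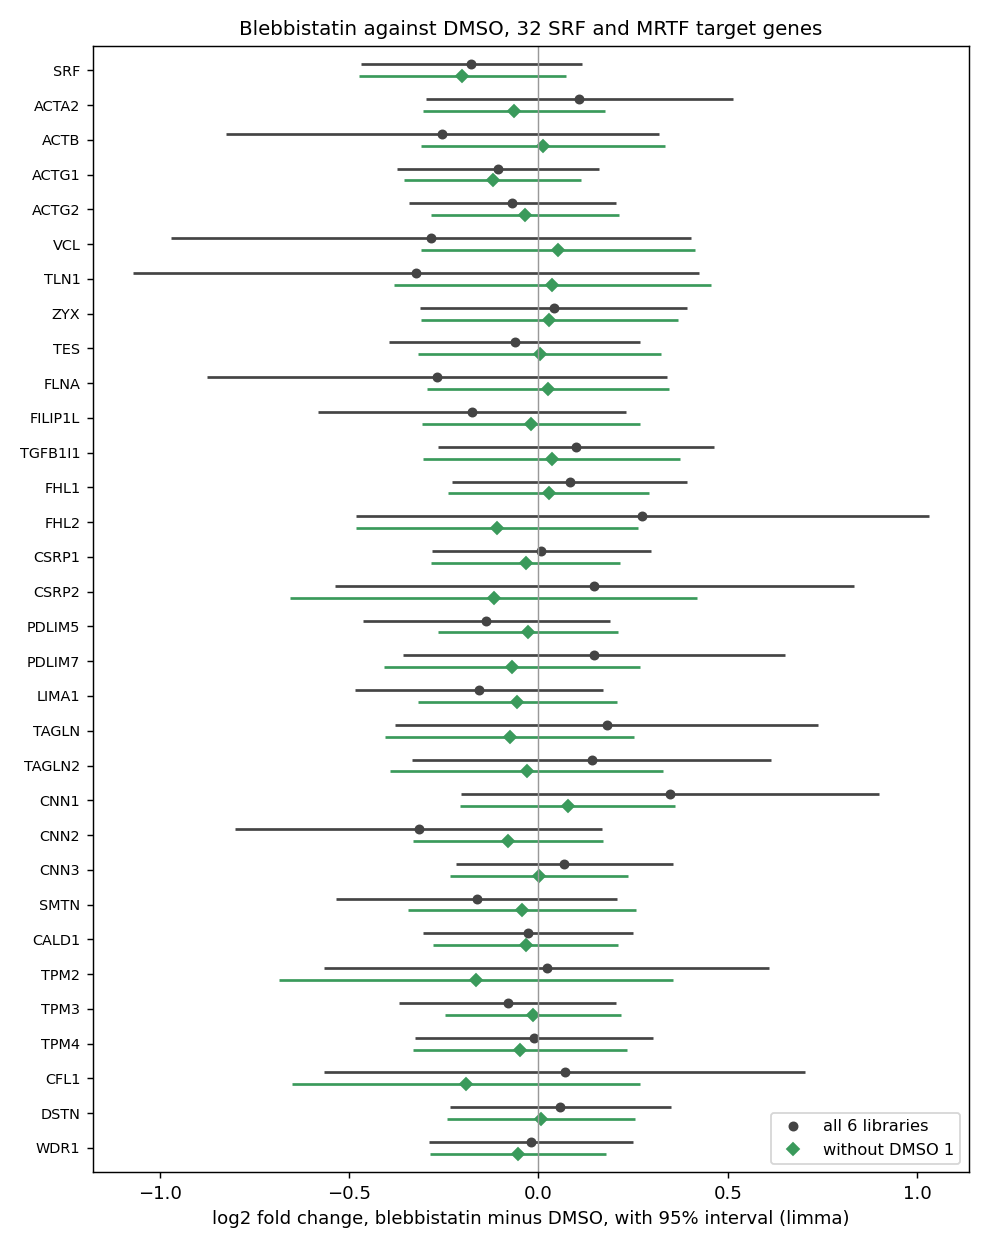
Log2 fold changes of blebbistatin minus DMSO with 95% intervals from limma for the 32 genes, with all 6 libraries (circles) and without DMSO replicate 1 (diamonds). Every interval includes 0, and the intervals of FHL2, TLN1, VCL and FLNA are among those that narrow without that library.

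With all 6 libraries the lowest bound was -1.07, for TLN1, and the highest 1.03, for FHL2. The 95% interval lay within 0.5 of 0 on the log2 scale for 16 of the 32 genes (50%), against 50.1% of the 1899 tested genes at 100 CPM or more. Without DMSO replicate 1 it lay within 0.5 for 29 of the 32, the exceptions being CSRP2, TPM2 and CFL1. Among the 30 high-level genes the share was then 93.3%, against 85.6% of the 1899. The standard error was smaller without that library for each of the 32 genes, with a median of 0.16 with all 6 libraries and 0.12 without it. That library was left out because it stood apart, so narrower intervals follow largely from this choice. They are no added evidence that the groups are alike. A p that misses the threshold does not show that the 2 groups are alike, and with 3 libraries per group changes within these intervals were not excluded.

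DMSO replicate 1 was the library most often outside the range of the others. In CPM as deposited it was the highest library for 10 genes and the lowest for 18 (28 of 32, 87.5%), and it was the highest or lowest for 80.3% of the 1899 tested genes at 100 CPM or more. After scaling it was outside for 27 of the 32 genes and for 81.6% of the 1899. In it 5 genes, ACTB, VCL, TLN1, FLNA and CNN2, were more than 0.5 above the mean of the other 5 libraries on the log2 scale of scaled CPM, and 6 genes, FHL2, CSRP2, PDLIM7, TAGLN, CNN1 and CFL1, more than 0.5 below. As medians over each marker list, log2 levels in this library differed from the mean of the rest by 1.72 for red blood cells, 0.31 for smooth muscle, 0.17 for endothelium, 0.012 for cardiomyocytes, -0.0067 for fibroblasts and -0.62 for macrophages. The red blood cell median rests on only 2 tested genes, HBB and ALAS2. ALAS2 was at 0.079 to 1.02 CPM, near the 0.1 CPM added before log2. Of members known from smooth muscle, ACTA2 (-0.48), TAGLN (-0.72), CNN1 (-0.86), CSRP2 (-0.73) and CSRP1 (-0.10) were lower in DMSO replicate 1. SMTN (0.39) and ACTG2 (0.12) were higher in it, and CALD1 was at -0.0017. The part of cell mixture in these differences was not tested. The median SD of scaled log2 values was 0.13 with blebbistatin and 0.22 with DMSO over the 32 genes, against 0.13 and 0.25 over the 1899.

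Libraries also resembled each other across the groups. The closest pair over the 32 genes was blebbistatin replicate 1 with DMSO replicate 3, with a median absolute log2 difference of 0.032, followed by blebbistatin replicate 3 with DMSO replicate 2 at 0.055. The closest pair within a group, blebbistatin replicates 2 and 3, differed by 0.12. Over the 1899 tested genes at 100 CPM or more, blebbistatin replicate 1 with DMSO replicate 3 was also the closest pair, at 0.042. The closest pair within a group was there again blebbistatin replicates 2 and 3, at 0.12. Within the blebbistatin group, replicate 2 departed from replicates 1 and 3 largely in the direction in which DMSO replicate 1 departed from DMSO replicates 2 and 3. For example, FHL2 differed on the log2 scale by -0.42 in the blebbistatin contrast and by -1.15 in the DMSO contrast, CFL1 by -0.52 and -0.78, TPM2 by -0.52 and -0.56, and VCL by 0.25 and 1.01. These contrasts share no library, but they were not planned. After each group's mean was removed, blebbistatin replicate 2 was already the treated library that correlated best with DMSO replicate 1 over all tested genes. Its correlation was 0.205, against -0.289 for replicate 1 and 0.0905 for replicate 3. Taking replicate 2 thus favoured a positive correlation. Over the 32 genes they had the same sign for 25 (78.1%), with a Pearson correlation of 0.81 and a Spearman correlation of 0.78. Over the 1899 genes the signs were the same for 77.4%, with correlations of 0.67 and 0.70. The points are genes of the same libraries and not independent replicates, so these correlations are descriptions.

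**Figure D4:**
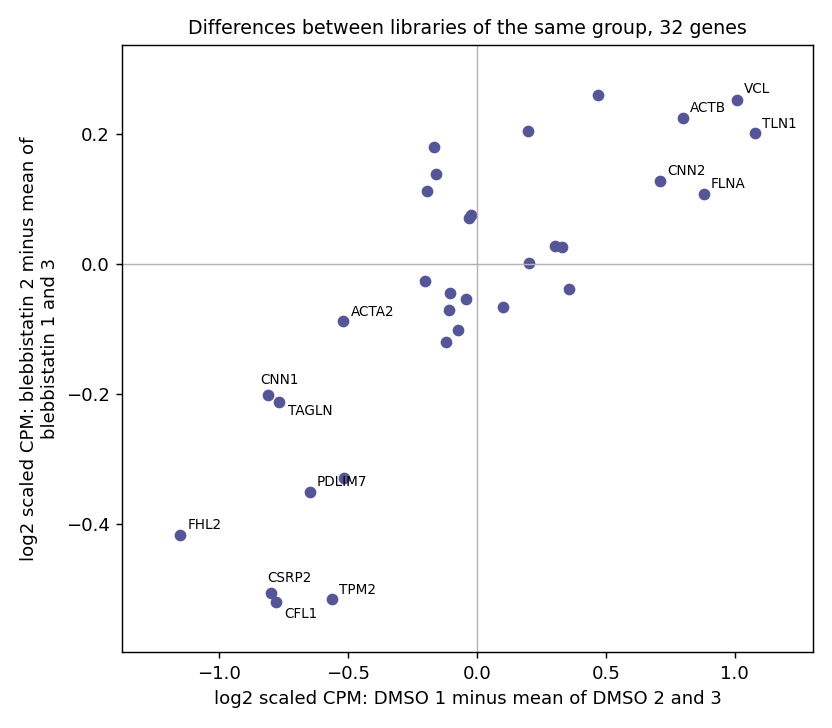
Each point is 1 of the 32 genes, with the log2 difference of DMSO replicate 1 from the mean of DMSO replicates 2 and 3 across and that of blebbistatin replicate 2 from the mean of blebbistatin replicates 1 and 3 upward. FHL2, CSRP2, CFL1, TPM2 and PDLIM7 are low in both contrasts and VCL, ACTB, TLN1, FLNA and CNN2 high in both. The contrasts were not planned.

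Other genes of the pathway came from 3 lists. Of 26 measured genes of the actin switch and SRF's partners, limma called 0, with 0 at an unadjusted p under 0.05. Their median log2 fold change was -0.018 (-0.33 to 1.13), with 12 positive and 14 negative. MKL1, which encodes MRTF-A, was at 38.9, 51.6 and 57.5 CPM with blebbistatin and 49.9, 47.2 and 40.5 CPM with DMSO (log2 fold change 0.051 ± 0.19), and was named after its values were seen. Among the 3 lowest in p were ELK4, a ternary complex factor (log2 fold change 1.13 ± 0.62), and the cardiac factor gene NKX2-5 (log2 fold change 0.32 ± 0.21). ELK4 was at 106, 25.1 and 142 CPM with blebbistatin and 43.5, 29.8 and 25.4 CPM with DMSO, highest in blebbistatin replicates 1 and 3. Of 21 other contractile and adhesion targets, limma called 0, with 0 at an unadjusted p under 0.05 and a median of -0.0095 (-0.42 to 0.35). Lowest in p were SYNPO2, an actin-binding protein gene (log2 fold change -0.33 ± 0.22), the smooth muscle myosin gene MYH11 (log2 fold change -0.32 ± 0.22) and the non-muscle myosin gene MYH9 (log2 fold change -0.42 ± 0.31), all highest in DMSO replicate 1. Without that library they were at -0.12, -0.067 and -0.042. MYH9 is uncertain, since the table also has a row MYH9L1.

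Immediate early targets of SRF, not divided by the partner that SRF uses, made the other list. All 15 tested genes had negative fold changes, with a median of -0.79 (-1.33 to -0.16). Limma called 0 of them at an adjusted p under 0.05, with 9 at an unadjusted p under 0.05, all lower. Over all 15204 tested genes 229 were at an unadjusted p under 0.05 (1.51%), 118 of them lower. For 9 of the 15 all blebbistatin libraries lay below all DMSO libraries, which was so for 2.48% of all tested genes. The count was 9 after scaling too. FOS, the AP-1 subunit gene, was at 10.3, 11.6 and 11.1 CPM with blebbistatin and 26.9, 26.6 and 27.7 CPM with DMSO. EGR2, a zinc finger factor gene, was at 15.7, 17.2 and 21.3 CPM with blebbistatin and 33.0, 45.6 and 40.7 CPM with DMSO, and CYR61, a matricellular protein gene, at 376, 523 and 522 CPM with blebbistatin and 1185, 1025 and 889 CPM with DMSO. For these 3 genes DMSO replicate 1 lay with the other DMSO libraries, above every treated library. Their log2 fold changes were -1.33 ± 0.14, -1.17 ± 0.17 and -1.17 ± 0.21, with limma adjusted p of 0.0594, 0.335 and 0.757. This list was drawn up with earlier results of these data known, and the difference between the lists was not tested. CPM gives transcript levels at 0.5 h only, and neither transcription nor the turnover of each transcript was measured. The levels therefore do not show which list responded in transcription. CArG boxes stood in the windows of 3 of the 11 immediate early genes with a window (27.3%, against 1.77% of all genes). With near boxes it was 8 of 11 (72.7%, against 10.1%). In the other contractile list 4 of 16 had a box (25%), and 6 of 16 with near boxes (37.5%). Of SRF's partners 0 of 25 had either. A link between boxes and fold changes was not tested.

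**Figure D5:**
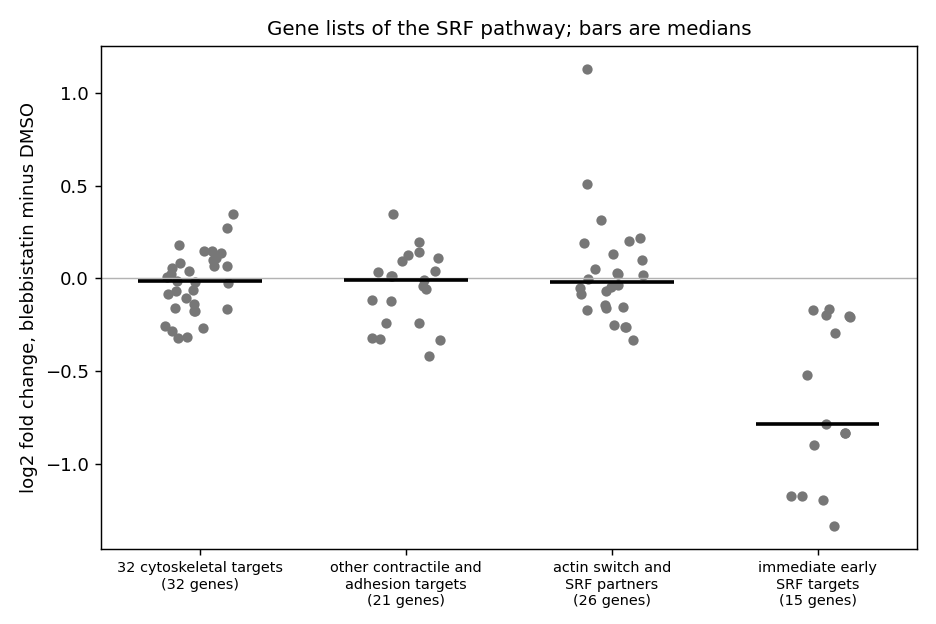
Each point is the log2 fold change of 1 gene, blebbistatin minus DMSO, and each bar a list's median. The 32 cytoskeletal targets, the other contractile targets and SRF's partners scatter around 0, with ELK4 at 1.13, while the 15 immediate early targets all lie below 0. These are transcript levels at 0.5 h, and the difference between the lists was not tested.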

How the data were processed

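The authors deposited 1 table of CPM, with 28909 genes and 6 RNA libraries, in which every library has the same total. Among the tools in the submitters' processing notes are edgeR 3.20.9, HISAT2 2.1.0 and StringTie 1.3.4, with the rat build rn6; no role is given, and the annotation and strand setting are not given in the sources used here. In each library 99.0 to 99.1% of values below 100 CPM were whole multiples, within 0.02, of a step taken as 1 read. The rest were fractions of that step, so the values were treated as CPM and no count test was run.

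Values were divided by TMM factors (0.928 to 1.03, unweighted, trims of 0.3 and 0.05) and 0.1 CPM was added before log2. A gene was tested when 3 or more libraries had 0.162 CPM, which is 10 reads at the median depth, 15204 in all, among them all 32 described here. Limma 3.58.1 (R 4.3.3; two-sided, no block, eBayes with a trend and robust) gave fold changes, standard errors, 95% intervals and p-values with Benjamini-Hochberg adjustment over all tested genes. Single libraries are given in CPM as deposited, and means ± SD in scaled CPM. The steps were tested on simulated data in which no library stood apart, unlike DMSO replicate 1 here. Every pair of libraries differed beyond counting noise (chi-square per degree of freedom of at least 35.7).

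The 32 genes and the lists were chosen with earlier results of these data known. The naming rule took all 32, the 3 genes of lowest p in each other list and a few defining markers; marker lists are given mainly as sums, and 1 gene that the rule took is not reported here. RefSeq names (GRCr8) matched all 32. Alternatives covered scaling, filter, pseudocount, threshold, library weights, the replicate block and each library left out.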

Additional observations from a re-analysis of the deposited data

How the results depend on the processing

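The count of cytoskeletal targets that passed was 0 under every alternative run, including an adjusted p under 0.1. The smallest adjusted p of a target over all settings was 0.595 and the smallest unadjusted p 0.0408. Groups did not overlap for 0 targets in CPM as deposited and for 1, ACTG1, in scaled CPM, a comparison chosen after seeing the data. The planned edgeR test was not run, since the values are CPM and some are fractions of a read. Over all genes the 3 calls became 13 (5 higher, 8 lower) with gene-by-gene library weights, which gave DMSO replicate 1 a weight of 0.232, and 229 at an unadjusted p under 0.05. The targets' median of -0.016 was 0.024 with CPM as deposited. The filters and the replicate block leave a gene's fold change as it was, and the pseudocounts hardly moved it. Their values therefore had little or no room to change sign. Of 288 gene values under all alternatives that kept the 6 libraries, 279 kept their sign. The other 9 were, with CPM as deposited, CALD1 at 0.014, TPM4 at 0.028 and WDR1 at 0.021; with upper-quartile scaling, TPM4 at 0.0034; and, with library weights, ACTA2 at -0.0090, CFL1 at -0.047, CSRP1 at -0.0070, TPM2 at -0.024 and ZYX at -0.0074.

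With the replicate block 2 genes passed over all genes, 0 of them targets. Same-numbered libraries correlated at -0.29, 0.054 and -0.092 after each group's mean was removed, and blebbistatin replicate 1 correlated best with DMSO replicate 3 (0.38). Pairing by number was not seen in these values. They cannot exclude shared preparations, because DMSO replicate 1, which stood apart, weighs on the DMSO mean.

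With 1 library left out, 3 to 6 genes were called over all genes, with 6 without DMSO replicate 1 and 6 without DMSO replicate 3, and 0 targets each time. The targets' median ran from -0.074 without blebbistatin replicate 1 to 0.0087. Of 192 gene values 25 changed sign, 14 of them without DMSO replicate 1. Log2 fold changes of genes that changed sign ran from -0.065 to 0.21 for ACTA2, -0.45 to 0.012 for ACTB, -0.052 to 0.016 for CALD1, -0.19 to 0.28 for CFL1, -0.037 to 0.047 for CSRP1, -0.12 to 0.39 for CSRP2, -0.11 to 0.53 for FHL2, -0.49 to 0.025 for FLNA, -0.070 to 0.31 for PDLIM7, -0.076 to 0.38 for TAGLN, -0.031 to 0.30 for TAGLN2, -0.13 to 0.0062 for TES, -0.61 to 0.036 for TLN1, -0.17 to 0.22 for TPM2, -0.085 to 0.050 for TPM4, -0.54 to 0.051 for VCL and -0.041 to 0.14 for ZYX. The cause was not tested. Values of CSRP2 and TES rest on fewer reads than those of the other genes.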

Other observations

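The markers of lowest p in each cell type list were read with the same limma fit, and 0 of them were at an unadjusted p under 0.05. Log2 fold changes of blebbistatin minus DMSO (± SE, 3 libraries each) were 0.27 ± 0.16 for PLN, -0.37 ± 0.29 for RYR2 and 0.95 ± 0.81 for NPPA among the cardiomyocyte genes. They were -0.33 ± 0.25 for DDR2, -0.13 ± 0.12 for DCN and -0.11 ± 0.13 for COL1A2 among the fibroblast genes. Beside SYNPO2 and MYH11, the smooth muscle gene KCNMB1 was at -0.20 ± 0.18. The endothelial genes KDR, TEK and CDH5 were at -0.22 ± 0.16, -0.23 ± 0.18 and 0.20 ± 0.16. The macrophage genes CD14, LYZ2 and CD68 were at 0.37 ± 0.16, 0.65 ± 0.53 and 0.47 ± 0.38, and at 0.32, -0.025 and -0.02 without DMSO replicate 1. The red blood cell genes HBB and ALAS2 were at -0.53 ± 0.37 and -0.56 ± 0.71. The remaining genes fixed for the tissue check were MYH6 (-0.17 ± 0.19), MYH7 (-0.24 ± 0.25), ACTN2 (-0.10 ± 0.21), PDGFRA (-0.17 ± 0.22) and LMOD1 (-0.0095 ± 0.13).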
